A study of Mus musculus with 12 samples.

Results

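The 10 genes described here are markers of Kupffer cells, the macrophages resident in the sinusoids of the liver, and of macrophages in general: Clec4f, Cd5l, Marco, Timd4, Vsig4, Adgre1, Csf1r, C1qa, C1qb and C1qc. They were taken by name, as every probe set whose annotated symbol is exactly one of these symbols, and this gave 15 of the 45101 probe sets on the array and 10 of 18193 genes named by a probe set that lists a single gene. The rule uses no measured value, but the genes were chosen with earlier results of these data known. Transcripts of male mice on 129J background were profiled in RNA of liver tissue or, in the last group named below, of liver tumors. Affymetrix arrays were used, 3 arrays per group and 12 in all, each labelled a biological replicate. The groups are labelled wild-type (WT) at 6 months, Iqgap2-/- knockout (KO) at 6 months, WT at 24 months and KO at 24 months, the last a hepatic tumor and the others normal liver, and both genotypes were fed a regular diet. No tissue-restricted deletion is named for the knockout. The tumor group holds KO mice only, so tumor and genotype cannot be told apart at 24 months. Values are log2 intensities, in which a difference of 1 is a 2-fold change.

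The deleted gene goes against part of these labels. Iqgap2 had a mean log2 intensity of 8.32 in the arrays labelled WT 6 months and 8.29 in those labelled KO 6 months, against 12.17 in old WT liver (WT 24 months) and 12.12 in the tumors, with SDs between 0.06 and 0.34 (n = 3). Its second probe set averaged 7.71, 7.36, 8.81 and 8.82 in the same order. Whether these probe sets lie in the deleted part of the gene is not given in the sources used here. The deposited labels are kept below, and every group name stands for the arrays labelled so. If the labels of young WT liver and of KO tumor were exchanged, what is named KO 6 months against WT 6 months would set young KO liver against KO tumor, and what is named WT 24 months against WT 6 months would set old WT liver against KO tumor. What is named KO 24 months tumor against WT 24 months would then set young against old WT liver, and KO 24 months tumor against KO 6 months would set young WT against young KO liver. The median over all probe sets lay between 5.41 and 5.45 in the 12 arrays.

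Kupffer cells clear bacteria, dying cells and complement-coated particles from portal blood. They depend on signalling through the CSF1 receptor, and the transcription factors PU.1, MAF and C/EBP family members act widely in macrophage gene control. CLEC4F is a lectin that in mice is found almost only on Kupffer cells, CD5L is a secreted scavenger receptor-like protein of tissue macrophages, MARCO binds bacteria, TIM4 (Timd4) binds phosphatidylserine on dying cells, and VSIG4 is a receptor for complement C3 fragments. Adgre1 encodes F4/80, the classical mouse macrophage antigen. C1qa, C1qb and C1qc encode the chains of C1q, the recognition unit of the classical complement pathway, which macrophages make in large part. In RNA of whole pieces of liver or tumor, fewer cells of a type and less RNA per cell cannot be told apart.

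Because the C1q genes and Cd5l differed from Clec4f between groups, and Vsig4 had one of the widest ranges between arrays, the stretches before the start of 5 of these genes are shown, read from RefSeq on GRCm38.p6 and written 5′ to 3′ on the strand of the gene without bases of the gene itself. The promoter table held 7 of the 10 genes, namely Clec4f, Cd5l, Marco, Timd4, Vsig4, C1qb and C1qc. They are C1qb at chr4:136886201-136886450 (minus strand), C1qc at chr4:136892937-136893164 (minus strand), Cd5l at chr3:87357631-87357880 (plus strand), Vsig4 at chrX:96293439-96293688 (minus strand) and Clec4f at chr6:83656117-83656366 (minus strand). Capitals mark GAGGAA, the core of PU.1 sites, or TTCCTC, the same motif on the other strand.
C1qb: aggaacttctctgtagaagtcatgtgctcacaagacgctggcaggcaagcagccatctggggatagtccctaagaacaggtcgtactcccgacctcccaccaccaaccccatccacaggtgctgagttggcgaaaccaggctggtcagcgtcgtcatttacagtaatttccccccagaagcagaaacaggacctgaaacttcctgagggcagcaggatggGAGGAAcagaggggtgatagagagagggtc
C1qc: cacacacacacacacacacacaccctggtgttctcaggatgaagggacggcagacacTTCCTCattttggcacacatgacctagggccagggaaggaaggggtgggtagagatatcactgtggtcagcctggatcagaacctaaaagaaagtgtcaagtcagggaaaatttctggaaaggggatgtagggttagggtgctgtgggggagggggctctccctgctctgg
Cd5l: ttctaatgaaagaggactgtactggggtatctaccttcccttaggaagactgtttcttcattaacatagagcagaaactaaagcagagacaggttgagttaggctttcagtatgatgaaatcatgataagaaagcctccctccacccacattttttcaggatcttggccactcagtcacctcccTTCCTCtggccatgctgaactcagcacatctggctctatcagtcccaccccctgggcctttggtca
Vsig4: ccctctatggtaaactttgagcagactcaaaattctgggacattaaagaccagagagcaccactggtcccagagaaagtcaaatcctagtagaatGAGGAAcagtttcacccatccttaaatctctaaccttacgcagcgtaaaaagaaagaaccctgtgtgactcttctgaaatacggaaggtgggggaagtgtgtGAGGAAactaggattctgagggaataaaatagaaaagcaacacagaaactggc
Clec4f: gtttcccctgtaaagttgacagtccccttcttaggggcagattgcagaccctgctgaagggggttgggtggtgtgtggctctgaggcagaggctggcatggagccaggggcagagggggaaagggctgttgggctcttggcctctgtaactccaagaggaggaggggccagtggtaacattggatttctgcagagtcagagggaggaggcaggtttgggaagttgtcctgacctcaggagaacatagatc
GAGGAA was found on either strand in 5 of the 7 promoters, those of C1qb, C1qc, Cd5l, Marco and Vsig4, and in 28.3% of all 32851 promoters in the table. It lay 30 bases before the start in C1qb, 193 in C1qc, 66 in Cd5l and 146 in Marco, and Vsig4 held it at 155 and at 53 bases. The MAF motif TGCTGAC was found in Timd4 only, 45 bases before the start on the other strand, against 4.67% of all promoters. The C/EBP palindrome TTGCGCAA, present in 0.183% of all promoters, was found in 0 of the 7. Clec4f had none of the 3 motifs in this window.

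One array carried the highest signal of every marker. Replicate 3 of WT 24 months was above each of the other 11 arrays in 15 of 15 probe sets, where 8.76% of all 45037 tested probe sets had that array on top. It was at least 2-fold above each of the others in 15 of 15, against 1.52% of all probe sets. The distance to the next highest array ran from 2.05 to 3.61 log2 units, or from 4.13- to 12.3-fold, with a median of 2.41. Over the mean of replicates 1 and 2 of its own group it stood 2.55 to 4.21 log2 units higher, with a median of 2.93.

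**Figure D1:**
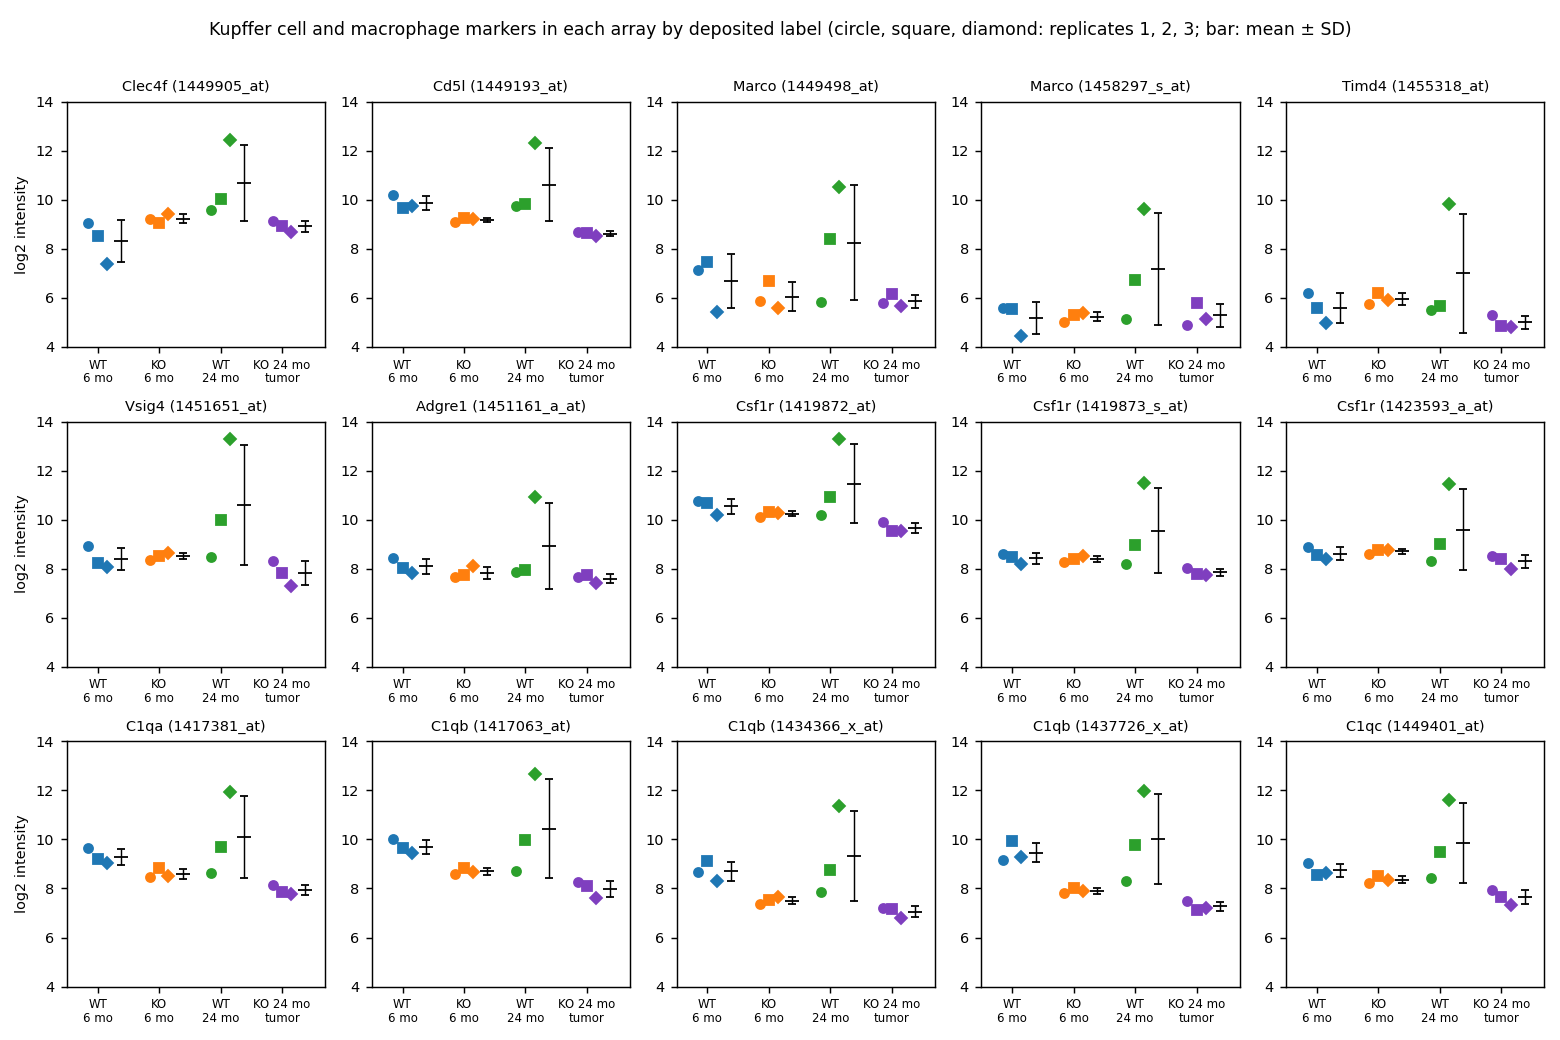
Log2 intensity (vertical axis) of the 15 probe sets of the 10 marker genes in every array, grouped along the horizontal axis by the label it was deposited under. Circles, squares and diamonds are replicates 1, 2 and 3, and the bar is the group mean ± SD (n = 3). The diamond of WT 24 months is the highest point in all 15 panels, and the 11 other arrays lie closer together.

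Among the genes most particular to Kupffer cells, Timd4 gave the widest gap. Its log2 intensity was 5.52, 5.69 and 9.81 in replicates 1, 2 and 3 of WT 24 months, 6.20, 5.59 and 4.98 in WT 6 months, 5.74, 6.20 and 5.92 in KO 6 months and 5.31, 4.86 and 4.83 in KO 24 months tumor. Replicates 1 and 2 of WT 24 months thus lay inside the range of the arrays labelled 6 months, and replicate 3 was 12.3-fold above the highest other array. The 11 other Timd4 values, from 4.83 to 6.20, lay around the median over all probe sets, 5.41 to 5.45. Both statements therefore rest on dim signal. Vsig4 read 8.49, 9.998 and 13.29 in WT 24 months, 8.91, 8.21 and 8.08 in WT 6 months, 8.37, 8.53 and 8.62 in KO 6 months and 8.30, 7.83 and 7.31 in KO 24 months tumor. For this complement receptor the 3 old WT livers were spread over the widest range of any marker, with an SD of 2.46. Marco, on its brighter probe set, read 5.83, 8.42 and 10.53 in WT 24 months, 7.15, 7.48 and 5.43 in WT 6 months, 5.86, 6.70 and 5.58 in KO 6 months and 5.78, 6.17 and 5.65 in KO 24 months tumor. It was also the only marker with an SD of 1 or more outside WT 24 months, 1.10 in WT 6 months, where replicate 3 was low. The second Marco probe set, whose suffix marks probes that can match other transcripts, had its 3 WT 24 months values at 5.15, 6.72 and 9.64. The lowest Marco values, 5.43 on the brighter and 4.45 on the second probe set, lay near or below the median over all probe sets. The spread of Marco between arrays thus rests in part on dim signal.

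Clec4f and Cd5l were bright in all groups. Clec4f read 9.58, 10.04 and 12.44 in WT 24 months, 9.05, 8.51 and 7.39 in WT 6 months, 9.24, 9.05 and 9.41 in KO 6 months and 9.13, 8.93 and 8.69 in KO 24 months tumor. All 3 old WT livers were above all other arrays, and WT 6 months held the lowest. Cd5l read 9.73, 9.82 and 12.33 in WT 24 months, 10.22, 9.67 and 9.73 in WT 6 months, 9.09, 9.27 and 9.21 in KO 6 months and 8.71, 8.64 and 8.53 in KO 24 months tumor. For Cd5l all 6 arrays labelled WT were above all 6 labelled KO, and the tumors were the lowest group.

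The general macrophage genes also had their highest value in replicate 3 of WT 24 months. Csf1r, on its brightest probe set, read 10.20, 10.92 and 13.28 in WT 24 months, 10.77, 10.67 and 10.18 in WT 6 months, 10.12, 10.31 and 10.28 in KO 6 months and 9.90, 9.52 and 9.55 in KO 24 months tumor. Its 3 probe sets had SDs of 1.61, 1.72 and 1.65 in WT 24 months and of 0.32 or less in every other group. Adgre1 read 7.86, 7.95 and 10.94 in WT 24 months and lay between 7.40 and 8.43 in the 9 arrays of the other groups. For F4/80, then, replicates 1 and 2 of WT 24 months did not stand apart from the other groups.

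C1qa read 8.64, 9.70 and 11.95 in WT 24 months, 9.65, 9.19 and 9.03 in WT 6 months, 8.47, 8.84 and 8.52 in KO 6 months and 8.16, 7.86 and 7.76 in KO 24 months tumor. C1qb, on its brightest probe set, read 8.71, 9.98 and 12.66 in WT 24 months, 10.01, 9.63 and 9.45 in WT 6 months, 8.58, 8.85 and 8.67 in KO 6 months and 8.25, 8.09 and 7.61 in KO 24 months tumor. C1qc read 8.42, 9.49 and 11.62 in WT 24 months, 9.05, 8.55 and 8.62 in WT 6 months, 8.22, 8.49 and 8.35 in KO 6 months and 7.94, 7.67 and 7.34 in KO 24 months tumor. In each of the 3 chains WT 6 months lay wholly above KO 6 months, and KO 6 months wholly above KO 24 months tumor. The other C1qb probe sets, of the kind whose probes can match other transcripts, kept that order.

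The spread within WT 24 months set these genes apart from their spread elsewhere. SDs of the 15 probe sets ran from 1.47 to 2.46 (median 1.75, n = 3 arrays) in WT 24 months, while their medians were 0.32 in WT 6 months, 0.14 in KO 6 months and 0.22 in KO 24 months tumor. Over all probe sets the median SD was 0.16 in WT 24 months and between 0.13 and 0.14 in the other groups. An SD of 1 or more in WT 24 months was seen in 15 of 15 marker probe sets and in 2.02% of all probe sets. Replicate 3 did not make the whole of that spread, since replicate 2 was above replicate 1 in 15 of 15, by 0.09 (Cd5l) to 2.59 (Marco) with a median of 0.90. Leaving replicate 3 aside, replicate 2 of WT 24 months was the highest array for 9 of 15 probe sets and an array of WT 6 months for the other 6. The lowest array was a KO 24 months tumor for 12 and replicate 3 of WT 6 months for Clec4f and both Marco probe sets. Marco was dim there, at 5.43 and 4.45.

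Other cell types were read from marker lists to see what moved with replicate 3. All 19 measured pan-macrophage and myeloid genes had their highest value there, and 18 were at least 2-fold above every other array. Lyz2, the macrophage lysozyme, read 8.81, 9.75 and 13.23 in WT 24 months, and Cd68, a lysosomal glycoprotein of macrophages, read 5.88, 7.23 and 10.34. The one below 2-fold was Mrc1, the mannose receptor, which sinusoidal endothelium expresses too, at 8.71, 9.53 and 10.65. The summed intensity of the list was 46625 in replicate 3 and 4709 in the lowest array of the group, and from 2642 to 7576 over the arrays of the 3 other groups.

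Resident macrophage genes outside the 10 markers did not all follow. Of 12, 6 were highest in replicate 3 and 5 of these at least 2-fold above every other array, namely Fcna, Folr2, Il18bp, Hmox1 and Axl. Cd163, the haemoglobin scavenger receptor, ran the opposite way, at 7.65 and 8.65 in replicates 1 and 2 and 5.57 in replicate 3. Id3, a transcription regulator that resident Kupffer cells use, read 10.43, 10.80 and 9.03, and Slc40a1, the iron exporter ferroportin, 12.48, 12.52 and 12.22. For these genes replicate 3 was thus the lowest of the 3 old WT livers while Clec4f, Timd4 and Vsig4 were highest there.

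Genes of monocytes and recruited macrophages followed in part, with 7 of 11 highest in replicate 3 and 5 at least 2-fold above all others: Itgam, Plac8, Trem2, Lgals3 and S100a4. Ccr2, the receptor by which monocytes enter tissue, read 6.63, 6.63 and 7.05. T and B cell markers had 3 of 10 past 2-fold (Cd3g, Cd2 and Cd79b), sinusoidal endothelial markers 2 of 12 (Lyve1 and Cdh5) and neutrophil markers 1 of 8 (Csf3r). None of 6 dendritic cell, 10 stellate cell, 5 cholangiocyte and 6 hepatocyte markers did so, nor did any of 7 genes for CSF1R ligands and complement partners of C1q. The mean log2 intensity of the hepatocyte markers was 14.47, 14.55 and 14.49 in the WT 24 months replicates. The neutrophil list had its highest mean in WT 6 months replicate 1, at 7.12, above 6.995 in WT 24 months replicate 3. The part of any of these cell types in the marker values was not tested.

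**Figure D2:**
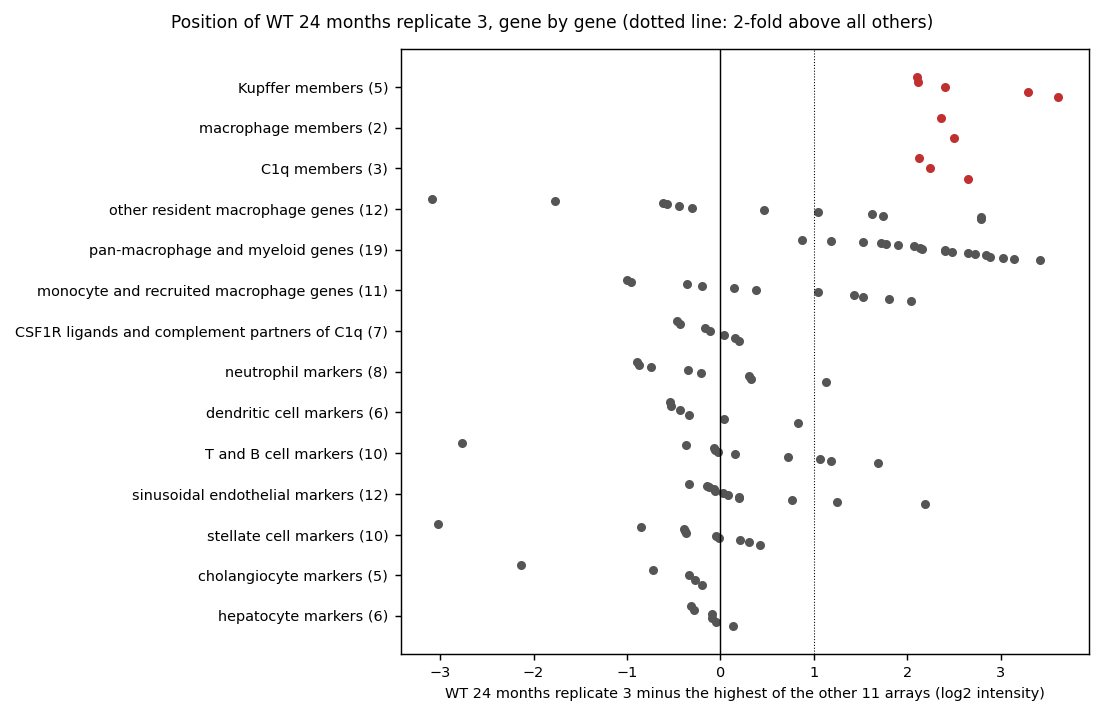
Log2 intensity of WT 24 months replicate 3 minus the highest of the other 11 arrays (horizontal axis), with 1 point per gene by its brightest probe set, for the marker genes (red) and 11 other lists (grey), with the number measured in parentheses. All 10 marker genes and 18 of 19 pan-macrophage genes lie right of the dotted line at 2-fold, and no gene of the stellate cell, cholangiocyte and hepatocyte lists does.

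WT 24 months against WT 6 months, by deposited label, was the comparison in which a marker passed limma's test with all arrays. If the labels were exchanged as described above, it would set old WT liver against KO tumor. Clec4f was 5.17-fold higher in WT 24 months than in WT 6 months (log2 difference 2.37, SE 0.61, adjusted p = 0.033), and its groups did not overlap. It was the only one of 15 probe sets called higher, beside 3.8% of all probe sets, and the only one with groups apart, beside 10.9%. Without replicate 3 the difference was 1.49 (SE 0.37, adjusted p = 0.028), beside 3.93% of all probe sets called higher. The call was lost when only the 6 arrays compared were fitted (adjusted p = 0.20) and when single arrays of WT 6 months were left out (adjusted p = 0.069 without replicate 2 and 0.11 without replicate 3). Leaving out each array of the KO groups in turn gave adjusted p values between 0.049 and 0.052, on either side of the threshold.

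The other 14 probe sets had positive differences that did not pass, from 0.55 to 2.19. Vsig4 had the largest of the other genes, 2.19 (SE 0.87, adjusted p = 0.17), followed by Marco at 1.57 (SE 0.92, adjusted p = 0.39) on its brighter and 1.98 (SE 0.83, adjusted p = 0.20) on its dimmer probe set. Replicate 3 carried most of these values. The median over the 15 probe sets was 0.98 with it and 0.02 without it, beside 0.00 and 0.02 over all probe sets, and 6 of the 15 differences were then negative. Cd5l went from 0.75 to -0.10, Adgre1 from 0.82 to -0.19 and C1qb from 0.75 to -0.36, none called either way.

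**Figure D3:**
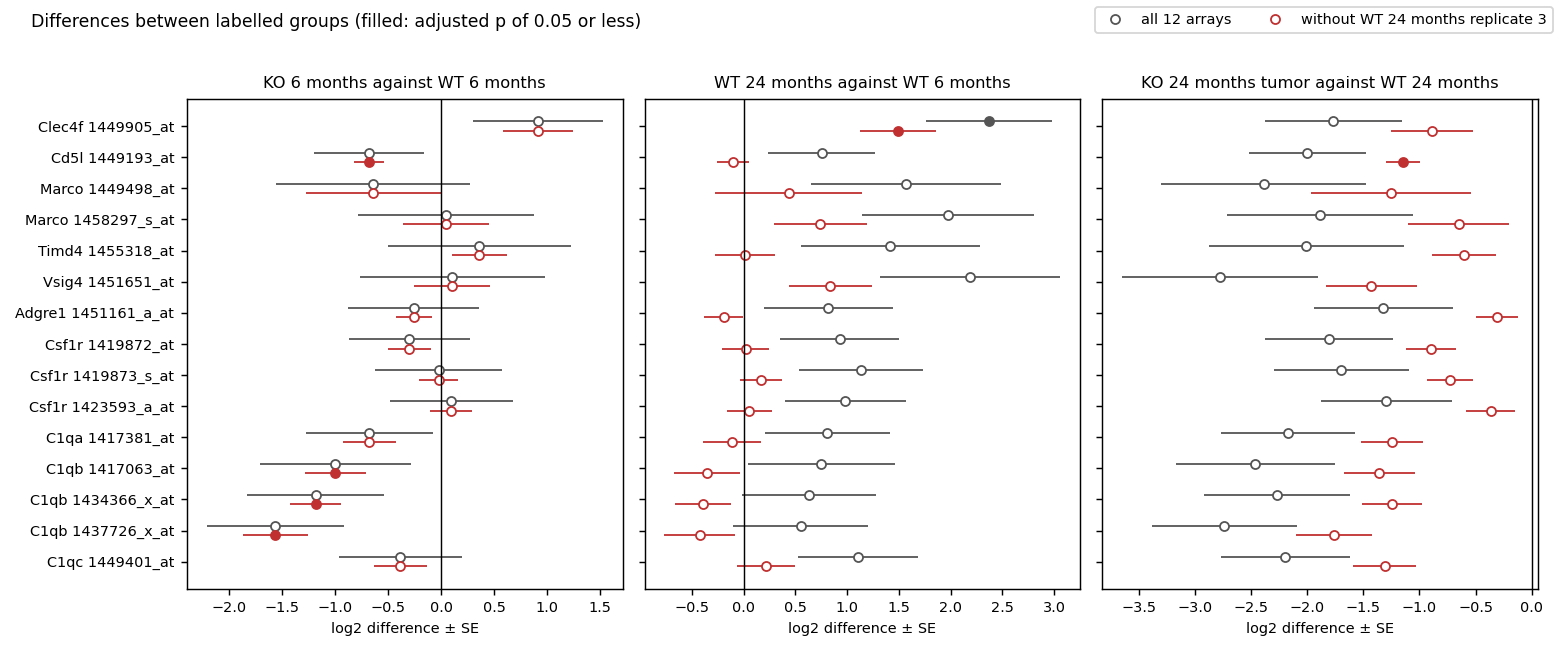
Log2 difference ± SE (horizontal axis) of the 15 probe sets (vertical axis) in 3 comparisons between labelled groups, with all 12 arrays (grey) and without WT 24 months replicate 3 (red); filled points have an adjusted p of 0.05 or less. Clec4f is filled in the comparison of WT 24 with WT 6 months, and without replicate 3 the C1qb probe sets are filled in that of KO 6 with WT 6 months and Cd5l both there and in that of KO tumors with WT 24 months.

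The C1q genes and Cd5l had lower values in the arrays labelled KO 6 months than in those labelled WT 6 months. Mean Iqgap2 on its brighter probe set was 8.29 and 8.32 in these groups, and whether they differ in genotype was not tested. Whether these markers were called depended on the fit, including which arrays of WT 24 months entered it. In the model of all 12 arrays 0 of 15 probe sets passed, beside 12.1% of all. The median difference was -0.30 over the markers and 0.04 over all probe sets. An unadjusted p under 0.05 was seen in 1 of 15, beside 11780 of all 45037 probe sets. C1qb had differences of -0.999 (SE 0.71), -1.19 (SE 0.65) and -1.57 (SE 0.65) on its 3 probe sets, Cd5l one of -0.68 (SE 0.52) and C1qa one of -0.68 (SE 0.60). Arrays of the groups did not overlap for 6 probe sets, those of C1qa, C1qb, C1qc and Cd5l, all lower in KO, beside 14.3% of all probe sets.

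The SE in that model includes the spread in WT 24 months, a group that does not enter this difference. With only the 6 arrays compared, 5 of 15 were called lower, beside 6.2% of all probe sets. They were C1qb (SE 0.16, 0.20 and 0.19 with adjusted p = 0.0069, 0.0089 and 0.0026), Cd5l (SE 0.16, adjusted p = 0.029) and C1qa (SE 0.18, adjusted p = 0.048). SAM called 5 lower as well, beside 9.95%. Without replicate 3 of WT 24 months, 4 were called lower beside 7.07%, the 3 of C1qb (adjusted p = 0.038, 0.0074 and 0.0058) and Cd5l (adjusted p = 0.0071). Clec4f differed by 0.91 (SE 0.61, adjusted p = 0.39) in the other direction and Timd4 by 0.36 (SE 0.87, adjusted p = 0.84), neither called.

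Clec4f and C1q thus placed the WT 6 months arrays differently against the other groups. Within an array, Clec4f minus the mean of C1qa, C1qb and C1qc was -0.52, -0.61 and -1.64 log2 units in WT 6 months and between 0.31 and 1.13 in the 9 arrays of the other groups, WT 24 months replicate 3 included at 0.37. This contrast was chosen after its values were seen, and carries no test. Set against the mean of the 3 other groups, WT 6 months had 0 of 15 called, beside 15.8% of all probe sets. An unadjusted p under 0.05 was seen in 1 of 15, beside 12669 of all 45037 probe sets. Without WT 24 months replicate 3, 5 were called higher, beside 9.2%, and 1 lower, beside 8.76%. Those higher were Cd5l (0.68, adjusted p = 0.0019), C1qa (0.72, adjusted p = 0.034) and C1qb (1.02, 1.07 and 1.39, adjusted p = 0.011, 0.0035 and 0.0029). The one lower was Clec4f (-1.002, adjusted p = 0.027).

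**Figure D4:**
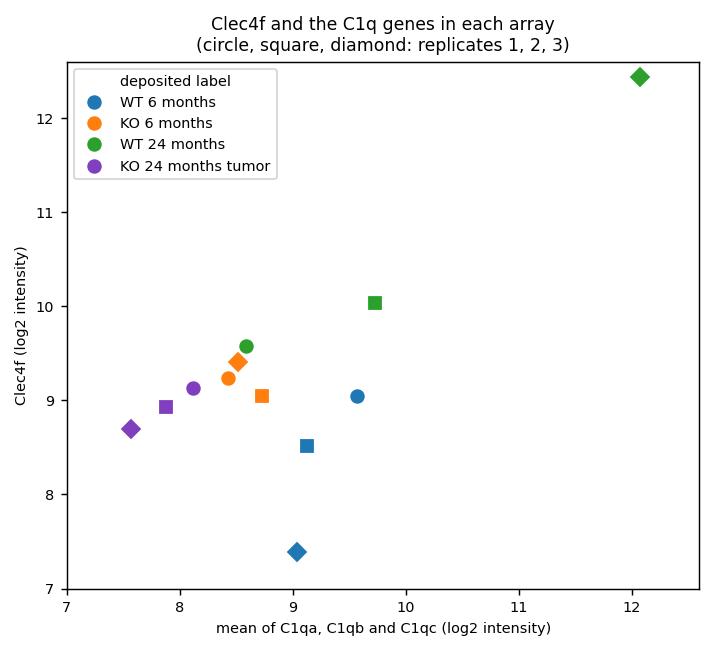
Log2 intensity of Clec4f (vertical axis) against the mean log2 intensity of C1qa, C1qb and C1qc (horizontal axis) in the 12 arrays, coloured by deposited label, with circles, squares and diamonds for replicates 1, 2 and 3. In the 3 arrays labelled WT 6 months Clec4f lies below the C1q mean, and in all arrays of the other groups above it. No array of another group has a C1q mean within their range, 9.03 to 9.57. WT 24 months replicate 3 is the point at the upper right.

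Other genes of these lists moved with the arrays labelled WT 6 months. Of the sinusoidal endothelial markers 11 of 12 were called lower there than in the mean of the other groups, beside 7.57% of all probe sets, with a median of -1.64 over the list and 0 positive differences, such as Clec4g, a lectin of these cells (-2.30, SE 0.18, adjusted p = 7.3e-06). Of the stellate cell markers 7 of 10 were called lower, such as Reln (-2.13, SE 0.23, adjusted p = 7.9e-05). Of the macrophage genes Mrc1 (-1.57), Cd163 (-2.33), Id3 (-2.46) and Slc40a1 (-0.56) were lower, with adjusted p between 0.0012 and 0.012. Il34, one of the ligands of CSF1R, had a difference of -0.71 (SE 0.09, adjusted p = 0.00024) and Masp1, a protease gene of the lectin pathway of complement, one of -0.65 (SE 0.11, adjusted p = 0.0017). Cd9, a tetraspanin of lipid-associated macrophages and other cells, was higher by 1.35 (SE 0.13, adjusted p = 4.3e-05). Of the 19 pan-macrophage genes 0 were called higher in WT 6 months with all arrays. Without WT 24 months replicate 3, 16 had positive differences and 10 were called higher, beside 9.2% of all probe sets. Among them was Cd68 (1.84, SE 0.25, adjusted p = 0.00039). Lgals3, the galectin-3 gene, was then higher by 2.62 (SE 0.26, adjusted p = 5.2e-05). The part of these other genes and cell types in the Clec4f and C1q values was not tested.

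At 24 months every marker had a negative difference between KO tumors and WT livers, and 0 of 15 passed in the model of all arrays, beside 0.238% of all probe sets. The differences ran from -2.78 (Vsig4, SE 0.87) to -1.29 (Csf1r, SE 0.58), with a median of -2.01 beside 0.05 over all probe sets. Adjusted p lay between 0.11 and 0.34. An unadjusted p under 0.05 was seen in 14 of 15, beside 6910 of all 45037 probe sets. Groups did not overlap for 12 of 15, beside 6.77% of all probe sets, the exceptions being both Marco and 1 of the Csf1r probe sets. Without replicate 3 of WT 24 months the median was -1.15, and Cd5l alone was called lower (-1.15, SE 0.15, adjusted p = 0.013), beside 0.198%. Without replicate 1, which had the lowest marker values of its group, 10 of 15 were called lower, beside 1.28%, among them C1qa (-2.90, adjusted p = 0.017), Vsig4 (-3.83, adjusted p = 0.025) and Csf1r (-2.44, adjusted p = 0.034). All 19 pan-macrophage genes had negative differences in this comparison, with a median of -1.91 and none called in the model of all arrays. Without replicate 3 of WT 24 months all 19 stayed negative, with a median of -0.74. Mpeg1 and Laptm5, 2 of the 19, were then called lower, beside 0.198% of all probe sets.

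Between KO livers at 6 months and KO tumors at 24 months the markers were closer together. Here 0 of 15 passed, beside 0.02% of all probe sets. In the model of all arrays 0 had an unadjusted p under 0.05, beside 2753 of all 45037 probe sets. With only the 6 arrays compared 11 had one, beside 4353 of all. SAM also called 0, its lowest q being 0.051, beside 0.278% of all probe sets. The differences ran from -0.95 (Timd4, SE 0.87) to 0.05 (the dimmer Marco probe set, SE 0.83), with a median of -0.56 beside 0.00 over all probe sets. The tumors lay wholly below the young KO livers for 11 of 15, those of C1qa, C1qb, C1qc, Cd5l, Csf1r, Timd4 and Vsig4, beside 7.36% of all probe sets. Clec4f, Adgre1 and Marco overlapped.

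The difference between labelled ages in KO minus that in WT was negative for 15 of 15 probe sets. Its median was -1.50, and -0.60 without WT 24 months replicate 3. In either fit 0 passed, beside 3.15% and 3.96% of all probe sets. In the model of all arrays 3 of 15 had an unadjusted p under 0.05, beside 6588 of all 45037 probe sets. Clec4f had the lowest adjusted p, at a difference of -2.68 (SE 0.86, adjusted p = 0.14). These comparisons share groups of arrays, so their values are not separate evidence.

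Genes outside the 10 whose pattern over the 12 arrays was most like that of the markers are given as a description. Replicate 3 of WT 24 months lies far from the other arrays in all of them, so coefficients without it stand beside those with it. Nearest to the mean of Clec4f, Cd5l, Marco, Timd4 and Vsig4 were Cfp, which encodes properdin (Pearson's r 0.99 over 12 arrays and 0.94 over 11), Emilin2 (0.98 and 0.91), Msr1 (0.98 and 0.89), Cxcl13 (0.98 and 0.85) and Lgmn (0.97 and 0.83). Nearest to Adgre1 and Csf1r were Ly86 (0.99 and 0.97), Cd86 (0.99 and 0.90), Ncf4 (0.99 and 0.88), Itgal (0.99 and 0.89) and C3ar1 (0.98 and 0.86). Nearest to the C1q genes were Ctss, the protease cathepsin S (0.99 and 0.98), Tlr13 (0.98 and 0.95), Fcgr3 (0.98 and 0.94), Tyrobp (0.98 and 0.93) and Fermt3 (0.98 and 0.93). These ranks are those over 12 arrays. Over 11 arrays Cfp, Ly86 and Ctss stayed first, but other genes entered the 5 nearest. They were Pdia2 and Il1b for the Kupffer genes, and Nt5c2 and Ly86 for C1q. For Adgre1 and Csf1r they were Agfg1, 2410006H16Rik, Tyrobp and Wfdc17.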

How the data were processed

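Liver or liver tumor RNA of 12 male mice was measured on 12 arrays. The deposited values are log2 intensities that the authors made by RMA (per the labels, version not stated), which corrects background, equalizes quantiles and summarizes probe sets. The 64 control probe sets were left out, and 45037 were tested. Arrays give no read depth, and the 3 arrays per group limit the precision, since no exact two-sided permutation p can fall below 0.1.

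Groups were the deposited labels, and symbols came from the platform annotation. Differences were fitted with limma 3.58.1 in R 4.3.3 as 4 group means over 12 arrays (8 residual degrees of freedom) and called where the p adjusted by Benjamini and Hochberg over all probe sets was at most 0.05, without a fold. SE are from limma and SD from the arrays of a group. A gene with several probe sets is given by its brightest where 1 value is printed. Alternatives were folds of 2 and 3, only the groups compared, SAM over 20 splits, a replicate block, 1 probe set or the mean per gene, a mean log2 intensity of at least 5, median and housekeeping centering, a trended and robust prior, and each array left out. A fit of only the groups compared without WT 24 months replicate 3 was added after the data were seen. The scripts were tested on simulated data in which each probe set had the same spread in all groups, unlike the markers here.

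Members, lists (11 beside the markers, 106 of 118 genes measured) and the comparison of WT 6 months with the other groups were chosen with earlier results of these data known. All marker probe sets are named. From other lists the rule names up to 4 genes per comparison with the smallest adjusted p, or all that passed where 5 or fewer did. It also names the 5 genes most like each group of markers by Pearson's r, and Iqgap2. Single-array values of list genes were chosen after they were seen. Same-numbered replicates did not deviate together (18 correlations, -0.24 to 0.19, 3 over 0.1), so numbers were not taken as pairs. Promoters are RefSeq's. Figures were drawn with matplotlib 3.10.9.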

Additional observations from a re-analysis of the deposited data

How the results depend on the processing

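Counts of marker probe sets called, of 15, moved with the fit. With WT 24 against WT 6 months the count was 1, and 0 with only the groups compared, with SAM, with the replicate block, with a trended and robust prior and with only the groups compared without WT 24 months replicate 3. It was 3 with housekeeping centering (all higher, beside 2.26% of all probe sets) and 0 to 5 with an array left out, 5 without WT 24 months replicate 1 (all higher, beside 3.85%). For KO 6 against WT 6 months the count of 0 became 5 with only the groups compared (beside 6.2% lower), 5 with SAM (9.95%), 1 with housekeeping centering (5.12%) and 0 to 4 with an array left out. For KO 24 months tumor against WT 24 months it was 0, then 11 with housekeeping centering (beside 0.746% lower), 1 with only the groups compared without WT 24 months replicate 3 (0.162%), and 0 to 10 with an array left out. For WT 6 months against the other groups it was 0, 2 with housekeeping centering (beside 10.5% in either direction) and 0 to 6 with an array left out. The interaction gave 0, and 2 with housekeeping centering (beside 2.95% in either direction). KO 24 months tumor against KO 6 months gave 0 under all alternatives run. Housekeeping centering rests on 3 genes and moved the median of all probe sets in WT 24 against WT 6 months from 0.00 to -0.12. The replicate numbers share only a number, and the block changed no call other than that of Clec4f (adjusted p = 0.061).

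Some differences that were not called turned their sign. In WT 24 against WT 6 months, without WT 24 months replicate 3 and with or without the other groups in the fit, differences of 0.75 (Cd5l), 0.82 (Adgre1), 0.81 (C1qa) and 0.75 (C1qb) became -0.10, -0.19, -0.12 and -0.36. For WT 6 months against the other groups, housekeeping centering gave 0.064 (Marco) and 0.082 (Adgre1), and the mean of its probe sets gave -0.12 (Csf1r). With an array left out the ranges in WT 24 against WT 6 months reached from these values to 1.20, 1.35, 1.54 and 1.62 in the same order. Those for WT 6 months against the other groups were -0.44 to 0.59 (Marco), -0.70 to 0.073 (Timd4), -0.19 to 0.32 (Adgre1), -0.13 to 0.39 (Csf1r) and -0.11 to 0.42 (C1qc). The ranges were -0.057 to 0.36 for Vsig4 in KO 6 against WT 6 months and -0.41 to 0.15 for Marco in KO 24 months tumor against KO 6 months. The causes were not tested.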
